A study of Mus musculus with 6 samples.

Results

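The cytosolic heat shock proteins and their co-chaperones were examined in RNA-seq of quadriceps muscle, as 36 genes picked by symbol out of the 27179 genes listed in the counts. The list took the heat shock factors, HSP90, HSP70 and its HSP110 relatives, the HSP40 proteins, the small heat shock proteins and the BAG genes outside the endoplasmic reticulum (ER) and mitochondria, together with the adaptors St13 and Stip1. All 36 genes had a count in each library and passed the filter on low counts. The rule goes by symbol alone, although the list was drawn up with earlier results of these data known. Most of them act in the cytosol, although Hspa13, kept in the list by its HSP70 domain, is known as a microsomal protein.

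The libraries came from 3 miDrp1KO mice (replicates A, E and F) and 3 control mice labelled Control f/f (replicates B, C and D). The miDrp1KO mice carried floxed alleles of Dnm1l, which encodes the mitochondrial fission protein Drp1, and a Cre recombinase (MerCreMer) that the human skeletal actin (ACTA1) promoter drives in muscle fibres and that tamoxifen switches on, so other cells of the muscle keep the gene. Both groups were on a C57BL/6J background and a normal chow diet, and both were given tamoxifen at 3 months of age (50 mg per kg a day for 4 days), so exposure to the drug was shared. Tissue was taken 3 weeks after the deletion, and the comparison asks which transcripts differ early after Drp1 is lost. Controls are described in the methods as flox/+ or flox/flox, and the label f/f was given to each control library here. Neither names a Cre for the controls. If they carried none, effects of the Cre itself and of Drp1 loss cannot be told apart. The methods name male mice for experiments that followed an early look at both sexes, while the labels give no sex and no sequencing pool for single libraries, and p-values measure the spread between these libraries.

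Heat shock proteins are chaperones, which bind unfolded or partly folded proteins and release them for folding, assembly or breakdown. HSP70 binds short hydrophobic stretches in a cycle driven by ATP, HSP40 proteins (the Dnaj genes) deliver clients and start ATP hydrolysis, HSP110 and BAG proteins exchange the nucleotide, and Stip1 and St13 help to hand clients on to HSP90, which finishes the folding of kinases, hormone receptors and myosin. Small heat shock proteins such as Cryab hold unfolding proteins without ATP and are abundant in muscle, where they sit on Z-discs and desmin filaments. Under heat, oxidants or other proteotoxic stress the transcription factor HSF1 leaves its complex with these chaperones, forms trimers and binds heat shock elements, inverted repeats of the letters GAA, in the promoters of the inducible members.

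Promoters are printed here for a choice of members. They are the inducible pair Hspa1a and Hspa1b, Hspb1, Hspb6, Dnaja4 and Hsph1, which share a library pattern described further on. Added to these were Dnajb6, for its long element, and Dnajb1. Dnajb6 also has the pattern. Not all genes with that pattern are printed, and those left out include genes without a match. RefSeq promoter windows on GRCm38, from 250 bases before to 50 bases after a transcript start, were matched by symbol for 28 of the 36 genes, with no window for Cryab, Hsf1, Hsp90aa1, Hsp90ab1, Hspa13, Hspa8, Hspb2 and St13. On either strand, GAANNTTC or TTCNNGAA, which is an element of 2 units, was found in 12 of those 28 genes (42.9%), against 17.0% of the 27025 genes with a window. Counted by window, it was in 14 of 41 (34.1%), against 15.1% of all 32851. An element of 3 units, in which both of these overlap, was found for Dnajb6 and Hsph1 alone, 2 of 28 genes (7.14%), against 0.662% of all genes. A match is a description of the letters and not a binding site. The stretches are the 150 bases before the start, 5′ to 3′ on the gene's strand, with each 2-unit match in capitals.
Hspa1a promoter, chr17:34972157-34972306, minus strand: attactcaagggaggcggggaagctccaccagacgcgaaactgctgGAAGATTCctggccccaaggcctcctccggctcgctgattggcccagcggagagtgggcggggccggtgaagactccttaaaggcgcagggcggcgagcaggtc
Hspa1b promoter, chr17:34959239-34959388, minus strand: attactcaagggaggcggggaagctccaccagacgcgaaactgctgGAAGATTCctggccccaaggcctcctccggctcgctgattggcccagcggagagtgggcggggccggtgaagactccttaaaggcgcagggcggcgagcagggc
Hspb1 promoter, chr5:135887769-135887918, plus strand: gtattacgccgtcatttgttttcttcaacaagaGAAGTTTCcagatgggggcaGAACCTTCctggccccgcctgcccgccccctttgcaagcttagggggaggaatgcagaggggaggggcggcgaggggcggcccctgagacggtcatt
Hspb6 promoter, chr7:30553151-30553300, plus strand: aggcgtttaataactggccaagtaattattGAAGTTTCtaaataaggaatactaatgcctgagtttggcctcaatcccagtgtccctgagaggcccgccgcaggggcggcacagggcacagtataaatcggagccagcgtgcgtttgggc
Dnaja4 promoter, chr9:54699409-54699558, plus strand: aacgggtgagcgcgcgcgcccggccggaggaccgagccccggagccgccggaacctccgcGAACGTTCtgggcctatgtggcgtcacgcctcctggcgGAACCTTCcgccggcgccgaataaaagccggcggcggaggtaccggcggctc
Dnajb6 promoter, chr5:29735748-29735897, plus strand: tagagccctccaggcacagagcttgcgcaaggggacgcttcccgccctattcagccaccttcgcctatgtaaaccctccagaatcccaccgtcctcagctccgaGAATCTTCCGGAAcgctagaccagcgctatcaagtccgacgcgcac
Hsph1 promoter, chr5:149636316-149636465, minus strand: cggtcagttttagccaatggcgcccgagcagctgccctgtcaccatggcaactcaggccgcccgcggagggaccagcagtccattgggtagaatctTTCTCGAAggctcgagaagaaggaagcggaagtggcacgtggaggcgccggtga
Dnajb1 promoter, chr8:83608025-83608174, plus strand: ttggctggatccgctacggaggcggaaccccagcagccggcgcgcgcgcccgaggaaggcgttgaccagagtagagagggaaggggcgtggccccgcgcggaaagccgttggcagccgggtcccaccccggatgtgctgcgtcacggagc

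Hspa1a and Hspa1b, the stress-inducible HSP70 pair, were identical at 149 of these 150 bases, each with 1 match. Hspb1 and Dnaja4 each held 2 separate matches, Hspb6 held 1 before its other listed start, and in Dnajb6 2 matches overlap and make up the 3-unit element. The 3-unit element of Hsph1 lies after its start and is not in the stretch shown. Dnajb1, the main stress-induced HSP40, had no match in its windows. The element of 2 units was also found before a start of Dnaja1, Dnajb4 and Hspb3 and after that of Bag3 and Hspb8, which are not printed. Every printed stretch but that of Dnajb1 holds a match, which follows in part from the choice of genes to print. Over all heat shock genes with a window, 12 of 28 held one. No match was found in the windows of Dnajb2, Dnajb5, Stip1, Bag5, Hspa1l, Hspa2, Hspa14 and Hspa4l, which are not printed either. Hspa1l, Hspa2, Hspa14 and Hspa4l nevertheless share the library pattern described further on. So does Dnajb4, which holds a match.

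Library depth ran from 13989588 to 62042255 counts, and 16483 genes were tested with edgeR's quasi-likelihood test and Benjamini-Hochberg adjustment. Values per library are CPM, the count of a gene scaled to a library of fixed size, on TMM-scaled library sizes. Dnm1l measured 156, 114 and 140 CPM in control B, C and D against 70.6, 81.3 and 66.2 CPM in miDrp1KO A, E and F, a log2 fold change of -0.91 ± 0.18 (SE, n = 3 and 3) with an edgeR adjusted p of 0.362 and a DESeq2 adjusted p of 0.00382 (0.00382 to 0.877 over the alternatives). Each miDrp1KO library lay below each control library for this targeted gene, as the labels say. Fibre markers defined the tissue, with Acta1 from 8245 to 17847 CPM. Their sum over 14 genes was 287877 to 350126 CPM in control and 137301 to 266921 CPM in miDrp1KO libraries, and Myh4, the fast myosin, was 49885 to 62914 CPM against 12241 to 40363 CPM. The libraries also stood apart by slow fibre markers: 11 genes such as Myh7 and Myl2 summed to 773, 110 and 174 CPM in control B, C and D and to 184, 1030 and 936 CPM in miDrp1KO A, E and F, none at 0. Ribosomal RNA took 1.48 to 24.4% of the counts, and TMM factors ran from 0.840 to 1.42, highest in miDrp1KO E. Fewer cells of a type and less RNA per cell cannot be told apart in whole muscle.

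None of the 36 heat shock genes passed an adjusted p of 0.05 in edgeR, where 0.0121% of all tested genes (2 genes) did, and none passed it in limma voom (0.00607% of all tested genes). DESeq2 gave an adjusted p for 24 of the 36, Dnajb1 and Bag5 not among them, and called none of the 24, against 2.34% of the 4018 genes to which it gave one. The smallest edgeR adjusted p among the 36 was 0.362. At an unadjusted edgeR p under 0.05, 5 were lower in miDrp1KO muscle (Hsf1, Hsp90ab1, Dnajb2, Dnajb5 and Stip1), where 6.22% of all tested genes were, and 1 was higher (Dnajb1), where 4.68% were. The count of lower genes was 0 without control D (2.15% of all tested genes), 1 without miDrp1KO E (3.91%) and 7 without control C (5.45%), while the count of higher genes was 1 in each of these fits. The log2 fold change was negative for 26 of 36 genes against 48% of all tested genes, with a median of -0.16 against 0.02 over all tested genes. It was negative for 22 of the 36 with upper quartile scaling, 18 without control D and 32 without control C. That median was -0.02 without control D, -0.31 without control C and -0.33 when the slow fibre score entered the fit.

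**Figure D1:**
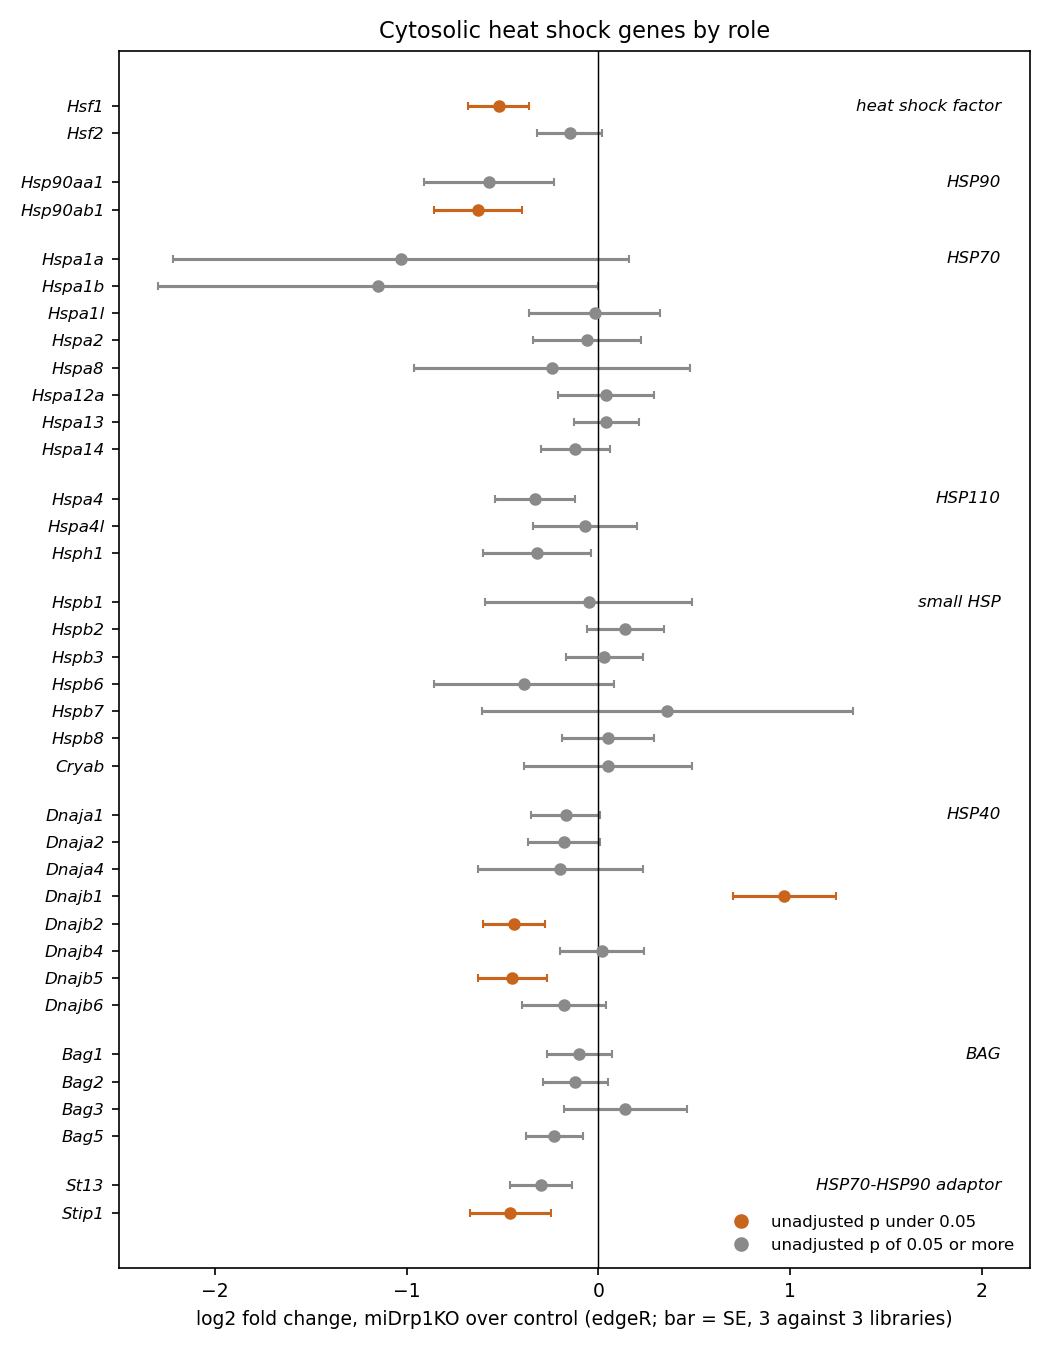
Log2 fold change (miDrp1KO over control, edgeR) of the 36 heat shock genes on the x axis, grouped by role, with bars for the SE and orange for an unadjusted p under 0.05. Orange points lie left of 0 for 5 genes and right of 0 for Dnajb1 alone, and the widest bars belong to Hspa1a, Hspa1b and Hspb7.

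Each miDrp1KO library lay below each control library for 6 of the 36 genes (Hsf1, Hsp90ab1, Dnajb2, Dnajb5, Bag5 and St13), where 10.3% of all tested genes did so, and above each for Dnajb1, where 7.67% did. With 3 against 3 libraries the exact permutation test of a single gene cannot give a p under 0.1, the value it gave for these 7 genes.

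Hsf1 (Entrez 15499, GRCm38 chr15:76477362-76501155, plus strand), the main heat shock transcription factor, was lower in the miDrp1KO libraries. It measured 32.6, 30.2 and 34.9 CPM in control B, C and D against 25.7, 18.9 and 23.6 CPM in miDrp1KO A, E and F. The groups did not overlap, and miDrp1KO E was lowest. Means were 32.6 ± 2.35 and 22.8 ± 3.46 CPM (SD, n = 3 each), a log2 fold change of -0.52 ± 0.16 (SE) with an unadjusted p of 0.00882 and an adjusted p of 0.38 in edgeR. Hsf2, a related factor with roles in development and in partnership with HSF1, ran from 39.1 to 45.9 CPM in control and from 32.4 to 43.6 CPM in miDrp1KO libraries, overlapping, with a log2 fold change of -0.15 ± 0.17.

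Hsp90ab1 (Entrez 15516, GRCm38 chr17:45567778-45573261, minus strand), the constitutive cytosolic HSP90, had the highest level per kilobase of the longest coding transcript among the 36 genes in control muscle, 378 CPM per kb. It measured 899, 873 and 1082 CPM in control B, C and D against 759, 528 and 557 CPM in miDrp1KO A, E and F. The miDrp1KO libraries were all lower, A being the closest to control. Means of 951 ± 114 and 615 ± 126 CPM gave a log2 fold change of -0.63 ± 0.23 (SE, n = 3 and 3), with an unadjusted p of 0.018, an adjusted p of 0.392 in edgeR and an adjusted p of 0.0755 in DESeq2 (0.0755 to 0.877 over the alternatives). Fast fibre markers were lower at an unadjusted edgeR p under 0.05 for 4 of 11 genes (6.22% of all tested genes), summing to 134604 to 156704 CPM in control and 68271 to 120653 CPM in miDrp1KO libraries, and their part in the values of Hsp90ab1 and Hsf1 was not tested.

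Hsp90aa1, the inducible HSP90, measured 38.4, 51.7 and 85.0 CPM in control B, C and D against 45.3, 47.5 and 25.7 CPM in miDrp1KO A, E and F. The groups overlapped, with control D highest and miDrp1KO F lowest. Its log2 fold change was -0.57 ± 0.34 with an edgeR adjusted p of 0.577, and it ran from -0.78 without control B to -0.17 without control D. Of its transcript sequence, 47.5% of all 50-base stretches also occur in transcripts of other genes, mostly the pseudogene Gm12346. How reads that match several genes were counted is not given in the sources used here, so the level of Hsp90aa1 is uncertain, as is the ratio of Hsp90ab1 to Hsp90aa1 of 11.1 to 23.4 across the libraries.

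Both adaptors between HSP70 and HSP90 had lower means in the miDrp1KO libraries. Stip1 (HOP), which bridges the pair of chaperones, measured 126, 85.0 and 147 CPM in control B, C and D against 86.1, 84.1 and 90.2 CPM in miDrp1KO A, E and F. Control C sat among the miDrp1KO values, which spread by only 1.07-fold. The log2 fold change was -0.46 ± 0.21 (SE, n = 3 and 3), with an unadjusted p of 0.048 and an adjusted p of 0.454 in edgeR. It ran from -0.68 without control C to -0.26 without control D, and the unadjusted p was under 0.05 in 4 of the 15 alternative fits.

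St13 (HIP), which stabilises the ADP-bound state of HSP70, measured 120, 109 and 129 CPM in control B, C and D against 99.5, 92.1 and 98.7 CPM in miDrp1KO A, E and F. No library crossed between the groups. Its log2 fold change was -0.30 ± 0.16, with an unadjusted p of 0.0878 and an adjusted p of 0.524 in edgeR.

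**Figure D2:**
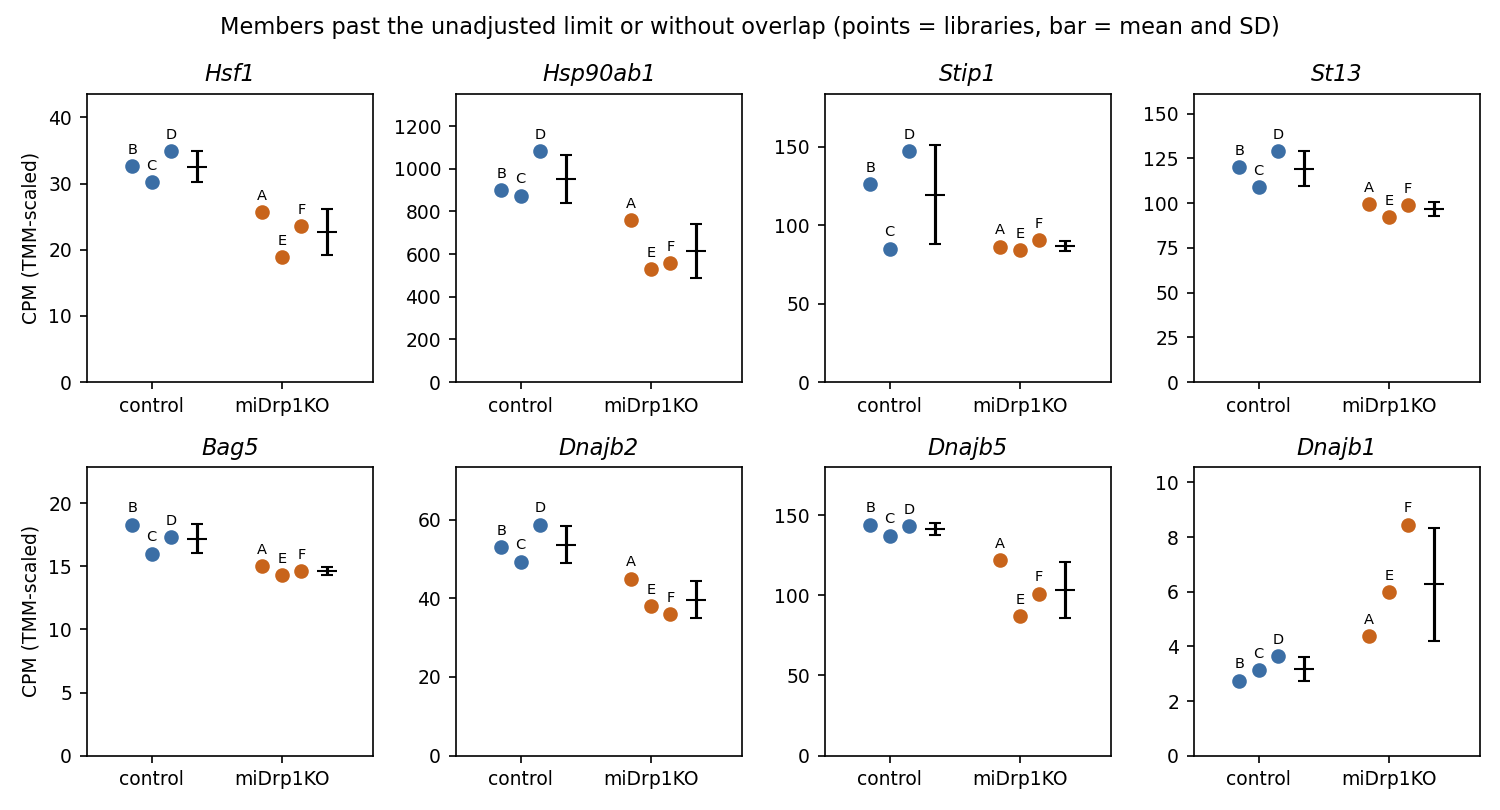
CPM per library (y axis, from 0) for the 8 heat shock genes with an unadjusted p under 0.05 or without overlap between the groups. Points are libraries with their letters, bars are the mean and SD of 3. The miDrp1KO points lie lower for Hsf1, Hsp90ab1, St13, Bag5, Dnajb2 and Dnajb5 and higher for Dnajb1, while control C lies among the miDrp1KO points for Stip1.

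Within HSP40, Dnajb1 had the opposite sign to Dnajb2 and Dnajb5. Dnajb1 (Entrez 81489, GRCm38 chr8:83608175-83612653, plus strand), which serves inducible HSP70 and is also known to hold HSF1 back, measured 2.75, 3.13 and 3.63 CPM in control B, C and D against 4.37, 5.98 and 8.45 CPM in miDrp1KO A, E and F. Every miDrp1KO library was above every control library, although the values rest on 43 to 244 counts. Means were 3.17 ± 0.444 and 6.27 ± 2.05 CPM (SD, n = 3 each), a log2 fold change of 0.97 ± 0.27 (SE), with an unadjusted p of 0.00392 and an adjusted p of 0.362 in edgeR, while DESeq2 gave it no adjusted p. Its direction held in all 15 alternative fits, with log2 fold changes of 0.73 to 1.19 and unadjusted p under 0.05 in each of the 15. In level it was the lowest of the 36 in control muscle, at 1.06 CPM per kb, and at 2.09 CPM per kb it lay above Hspa12a (1.72 CPM per kb) and Hspa4l (1.11 CPM per kb) in miDrp1KO muscle.

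Dnajb2, a neuron-enriched HSP40 that passes clients to the proteasome, measured 53.0, 49.3 and 58.7 CPM in control B, C and D against 45.0, 38.0 and 35.9 CPM in miDrp1KO A, E and F. All miDrp1KO values were lower. The log2 fold change was -0.44 ± 0.16 (SE, n = 3 and 3), with an unadjusted p of 0.0192 and an adjusted p of 0.393 in edgeR.

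Dnajb5 measured 144, 137 and 143 CPM in control B, C and D against 122, 86.9 and 101 CPM in miDrp1KO A, E and F. Control values lay within 1.05-fold of each other and above the others. Its log2 fold change was -0.45 ± 0.18, with an unadjusted p of 0.0278 and an adjusted p of 0.415 in edgeR.

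The other HSP40 genes overlapped between the groups. Dnaja2, the most abundant HSP40 per kilobase (102 CPM per kb in control), Dnaja1, Dnajb4 and Dnajb6 had log2 fold changes of -0.18 ± 0.19, -0.17 ± 0.18, 0.02 ± 0.22 and -0.18 ± 0.22. Dnajb6, mutated in a limb-girdle muscular dystrophy and known for suppressing aggregation, ran from 18.8 to 33.0 CPM in control and from 19.6 to 27.4 CPM in miDrp1KO libraries. Dnaja4 ran from 33.8 to 102 and from 39.8 to 73.5 CPM.

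For all 8 HSP70 genes the groups overlapped, and the spread within control ran from 1.18-fold for Hspa12a to 16.2-fold for Hspa1a. Hspa8 (Entrez 15481, GRCm38 chr9:40801276-40805202, plus strand), the constitutive HSC70, measured 796, 231 and 1029 CPM in control B, C and D against 213, 730 and 793 CPM in miDrp1KO A, E and F. Control C and miDrp1KO A stood far below the other libraries of their groups, a 4.46-fold spread in control and 3.72-fold in miDrp1KO. The log2 fold change was -0.24 ± 0.72 (SE, n = 3 and 3) with an edgeR adjusted p of 0.931, and it was 0.18 without miDrp1KO A, 0.20 without control D and -0.68 without control C. Sequence shared with other transcripts, mainly the pseudogene Gm15459, made up 38.6% of the 50-base stretches of Hspa8, which adds uncertainty to its level. Small nucleolar RNAs lie in the same annotated span.

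Hspa1a (Entrez 193740, GRCm38 chr17:34969359-34972156, minus strand) and Hspa1b (Entrez 15511, GRCm38 chr17:34956429-34959238, minus strand), whose promoters are printed above, are the HSP70 genes that stress induces. Hspa1a measured 6.44, 2.62 and 42.4 CPM in control B, C and D against 3.99, 13.6 and 8.01 CPM in miDrp1KO A, E and F. Hspa1b measured 10.6, 5.68 and 67.3 CPM in control B, C and D against 5.64, 20.8 and 11.6 CPM in miDrp1KO A, E and F. Control D, the most deeply sequenced library, was highest for both genes, and miDrp1KO E was next.

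Log2 fold changes were -1.03 ± 1.19 for Hspa1a and -1.15 ± 1.15 for Hspa1b (SE, n = 3 and 3), with edgeR adjusted p of 0.8 and 0.768. Without control D they were 0.92 and 0.66, so the sign rested on that library. The ratio of Hspa1a to Hspa1b stayed between 0.462 and 0.707 in all 6 libraries while the levels spread over 16.2-fold and 11.9-fold. Transcripts of the pair share 58.8% (Hspa1a) and 62.3% (Hspa1b) of their 50-base stretches with each other, and reads on these stretches cannot be placed on 1 of them, so the ratio itself is uncertain. Hspa1l, the neighbouring gene with 9.57% of its stretches shared with Hspa1a, ran from 24.4 to 45.4 CPM in control and from 22.6 to 49.4 CPM in miDrp1KO libraries.

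The other HSP70 genes had log2 fold changes of -0.06 to 0.04 for Hspa2, Hspa12a and Hspa13 and of -0.12 ± 0.18 for Hspa14, with mean levels of 5.48 to 21.2 CPM. Among the HSP110 genes, which act as nucleotide exchange factors for HSP70, Hspa4 was the most abundant per kilobase (36.5 CPM per kb in control). It measured 192, 127 and 187 CPM in control B, C and D against 147, 142 and 113 CPM in miDrp1KO A, E and F. Control C again fell among the miDrp1KO values, and the log2 fold change was -0.33 ± 0.21 with an edgeR adjusted p of 0.58. Hsph1 was highest in control D at 85.8 CPM, against 39.2 to 59.7 CPM in the other 5 libraries. Its log2 fold change was -0.32 ± 0.28, and 0.079 without control D. Hspa4l had a log2 fold change of -0.07 ± 0.27.

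Of the 7 small heat shock genes, Cryab, Hspb1, Hspb6 and Hspb7 ranged 2.85-fold to 12.9-fold over the 6 libraries, and Hspb2, Hspb3 and Hspb8 ranged 1.61-fold to 1.76-fold. Cryab (alphaB-crystallin; Entrez 12955, GRCm38 chr9:50745951-50756636, plus strand), which protects desmin and titin, measured 474, 166 and 444 CPM in control B, C and D against 219, 450 and 457 CPM in miDrp1KO A, E and F. The other 4 libraries lay at 444 to 474 CPM, well above control C and miDrp1KO A. Its log2 fold change was 0.05 ± 0.44 (SE, n = 3 and 3) with an edgeR adjusted p of 0.978, and -0.40 when the slow fibre score entered the fit.

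Hspb1 (HSP25, the actin-linked small heat shock protein) measured 51.8, 21.1 and 70.7 CPM in control B, C and D against 24.7, 60.0 and 54.5 CPM in miDrp1KO A, E and F. The same libraries, C and A, were lowest. Its log2 fold change was -0.05 ± 0.54 with an edgeR adjusted p of 0.985, and 48.8% of its 50-base stretches are shared with the pseudogene Hsp25-ps1.

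Hspb7, a filamin-binding member found in heart and muscle, measured 291, 22.5 and 83.9 CPM in control B, C and D against 110, 195 and 205 CPM in miDrp1KO A, E and F. Spread within control was 12.9-fold, from C to B, against 1.86-fold in miDrp1KO. The log2 fold change of 0.36 ± 0.97 became -0.16 without control C and 1.69 without control B, the lowest and highest values with 1 library left out. Hspb6 (HSP20) ran from 132 CPM in control C to 487 CPM in control B and from 156 to 285 CPM in miDrp1KO libraries. Its log2 fold change was -0.39 ± 0.47, with -0.76 without control C and 0.20 without control B.

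Hspb8, which works with Bag3, and the muscle genes Hspb2 and Hspb3 were more even, at 239 to 414 CPM, 20.3 to 35.8 CPM and 11.3 to 18.2 CPM over the 6 libraries. Their log2 fold changes were 0.05 ± 0.24, 0.14 ± 0.20 and 0.03 ± 0.20, and miDrp1KO F was highest for each. Exons of Hspb2 and Cryab overlap on opposite strands, so reads there could be told apart only if strand was used in counting, which the sources used here do not give.

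Of the BAG genes, which release clients from HSP70, Bag3 varied most. Bag3, the partner of Hspb8 in chaperone-assisted autophagy at the Z-disc, measured 93.2, 45.2 and 78.0 CPM in control B, C and D against 67.2, 113 and 57.9 CPM in miDrp1KO A, E and F. The groups overlapped, with miDrp1KO E highest and control C lowest. Its log2 fold change was 0.14 ± 0.32 (SE, n = 3 and 3) with an edgeR adjusted p of 0.907. Bag5 measured 18.3, 16.0 and 17.3 CPM in control B, C and D against 15.0, 14.3 and 14.6 CPM in miDrp1KO A, E and F, lower in each miDrp1KO library, with a log2 fold change of -0.23 ± 0.15, an unadjusted p of 0.151 and an adjusted p of 0.593 in edgeR. Bag1 and Bag2 had log2 fold changes of -0.10 ± 0.17 and -0.12 ± 0.17.

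A library pattern that crossed the genotypes, noticed after the values were seen, was also present. Control C and miDrp1KO A were the lowest pair of libraries for 14 of the 36 genes, where 11.0% of all tested genes showed that pair lowest. These were 6 of 8 HSP70 genes (Hspa1a, Hspa1b, Hspa1l, Hspa2, Hspa8 and Hspa14) and Hspb1, Hspb6, Cryab, Dnaja4, Dnajb4, Dnajb6, Hspa4l and Hsph1. Control D was the highest library for 13 of the 36, against 12.6% of all tested genes. Slow fibre markers were low in control C and miDrp1KO A as well, with a score (mean log2(CPM + 1) over 11 genes) of 2.70 and 3.18, against 3.51 in control D, 5.54 in control B, 5.95 in miDrp1KO F and 6.11 in miDrp1KO E, and 8 of those 11 markers had the same pair lowest. Control D was low by slow markers but high for Hspa8 and Hspa1a. The part of fibre type in the heat shock values was not tested beyond the fit with that score, in which Hspa8 had a log2 fold change of -1.04 with an edgeR adjusted p of 0.62 (0.62 to 0.985 over its alternatives). In the same fit Hspb6 had one of -0.73 with an adjusted p of 0.448 (0.444 to 0.933) and Dnaja4 one of -0.59 with an adjusted p of 0.47 (0.47 to 0.984).

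**Figure D3:**
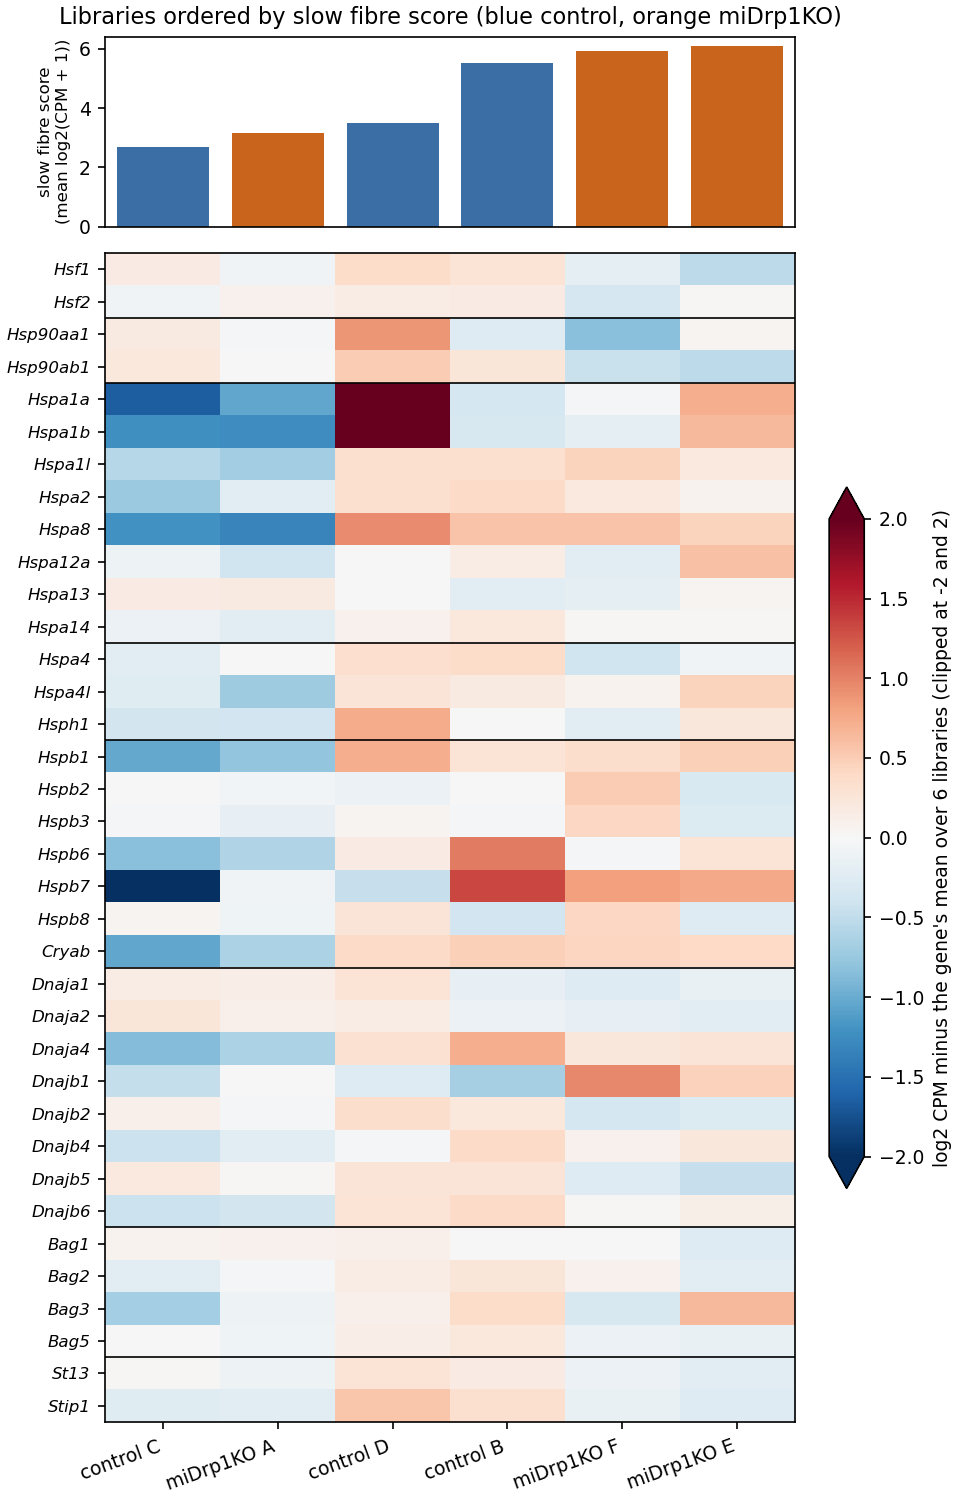
Upper panel, slow fibre score (mean log2(CPM + 1) of 11 markers) of the 6 libraries, blue for control and orange for miDrp1KO. Lower panel, log2 CPM of each of the 36 genes minus its mean over the libraries, colours ending at -2 and 2, rows grouped by role. The columns of control C and miDrp1KO A are blue for Hspa1a, Hspa1b, Hspa8, Hspb1, Hspb6, Cryab and Dnaja4, and control D is darkest red for Hspa1a and Hspa1b.

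The range over the libraries differed from family to family. The highest library exceeded the lowest by a median of 2.85-fold over the 7 small heat shock genes, 2.68-fold over the 2 HSP90 genes, 2.20-fold over the 8 HSP70 genes, 2.19-fold over the 3 HSP110 genes, 1.71-fold over the 8 HSP40 genes, 1.63-fold over the 2 heat shock factors, 1.58-fold over the 2 adaptors and 1.33-fold over the 4 BAG genes, against 1.82-fold over all tested genes. Hspa1a, Hspb7 and Hspa1b had the widest ranges (16.2-fold, 12.9-fold and 11.9-fold), and Bag1 the narrowest (1.27-fold). These are descriptions of 6 libraries, with no test.

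**Figure D4:**
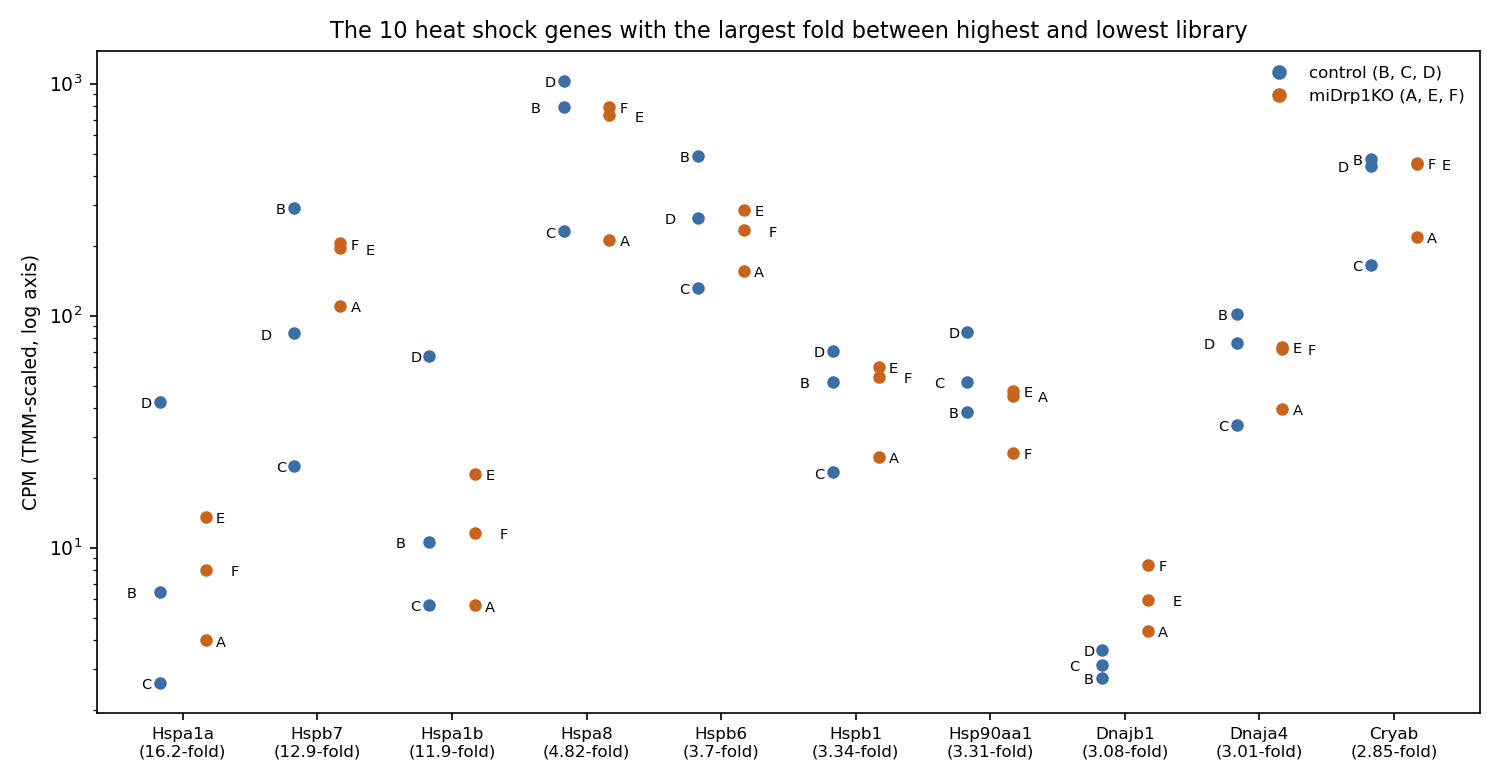
CPM per library (log axis) of the 10 heat shock genes with the largest ratio of the highest to the lowest library, given under each name, with control in blue and miDrp1KO in orange. Letters C and A mark the lowest points for Hspa8, Hspb6, Hspb1, Dnaja4 and Cryab, and D lies highest for Hspa1a and Hspa1b.

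In order of level per kilobase in control muscle, Hsp90ab1 (378 CPM per kb), Cryab (324 CPM per kb), Hspa8 (286 CPM per kb), Hspb6 (216 CPM per kb) and Hspb8 (172 CPM per kb) led, ahead of Bag1 (104 CPM per kb) and Dnaja2 (102 CPM per kb). In miDrp1KO muscle Cryab (336 CPM per kb) was first, with Hsp90ab1 (244 CPM per kb) and Hspa8 (242 CPM per kb) behind it. The libraries of Cryab and Hspa8 overlapped those of Hsp90ab1 widely once divided by length, so their order rests on the means only. At the other end were Dnajb1, Hspa4l (1.16 CPM per kb in control) and Hspa12a (1.68 CPM per kb in control).

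Other chaperone genes were taken from lists by their textbook partners, 94 genes in 5 lists, all tested. None passed an adjusted p of 0.05 in edgeR. At an unadjusted p under 0.05, 20 were lower and 3 were higher in miDrp1KO muscle, against 6.22% and 4.68% of all tested genes. This split depended on the scaling, with 10 lower and 6 higher under upper quartile normalization, where 3.88% and 7.23% of all tested genes were. The count of lower genes was 6 without control D (2.15% of all tested genes), 8 without miDrp1KO E (3.91%) and 10 without control B (3.50%). DESeq2 gave an adjusted p for 62 of the 94 and called Nudc, Dnajc21 and Lonp1, against 2.34% of the 4018 genes with such a value.

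Of 24 HSP90 co-chaperones, 4 were lower at the unadjusted limit (6.22% of all tested genes) and none higher (4.68%), with a list median of -0.24. Nudc, a dynein-linked co-chaperone, measured 43.1, 47.0 and 52.7 CPM in control B, C and D against 30.0, 26.4 and 23.3 CPM in miDrp1KO A, E and F. All miDrp1KO values were lower, with a log2 fold change of -0.84 ± 0.16 (SE, n = 3 and 3), an edgeR unadjusted p of 0.000284, an edgeR adjusted p of 0.362 and a DESeq2 adjusted p of 0.00709 (0.00709 to 0.877 over the alternatives). Unc45b, the HSP90 partner that folds muscle myosin, had a log2 fold change of -0.52 ± 0.22 (-0.27 without control D, and an unadjusted p under 0.05 in 6 of 15 alternatives), Ahsa2 one of -0.44 ± 0.20 and Nudcd3 one of -0.43 ± 0.19 (-0.28 without miDrp1KO E).

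Of 22 other cytosolic HSP70 partners, 9 were lower at the unadjusted limit (6.22% of all tested genes) and none higher (4.68%), with a list median of -0.27. Dnajc21, a ribosome assembly factor, measured 144, 139 and 150 CPM in control B, C and D against 109, 90.5 and 90.0 CPM in miDrp1KO A, E and F. The groups lay apart, with a log2 fold change of -0.58 ± 0.17, an edgeR adjusted p of 0.377 and a DESeq2 adjusted p of 0.0487 (0.0487 to 0.877 over the alternatives). Synpo2, which works with Bag3 at the Z-disc, measured 536, 345 and 389 CPM in control B, C and D against 303, 250 and 202 CPM in miDrp1KO A, E and F, a log2 fold change of -0.75 ± 0.23 with an edgeR adjusted p of 0.379. Dnajc7 and Synpo were the other genes of smallest p, at log2 fold changes of -0.53 ± 0.17 and -0.73 ± 0.24. Stub1 (CHIP), the ubiquitin ligase that tags HSP70 clients, had a log2 fold change of -0.52 ± 0.22 (-0.31 without miDrp1KO E). Bag6, Sgta, Tomm34 and Dnajc2 were also under the limit. Dnajc2 was at -0.47 ± 0.21 (-0.26 without miDrp1KO F, and an unadjusted p under 0.05 in 5 of 15 alternatives).

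The TRiC ring and prefoldin, which fold actin and tubulin, had 2 of 15 genes lower at the unadjusted limit, where 6.22% of all tested genes were. These were Tcp1 at -0.41 ± 0.18 and Cct8 at -0.40 ± 0.17 on the log2 scale. Pfdn4 was higher at 0.71 ± 0.22, where 4.68% of all tested genes were, and the list median was -0.19. Among 17 ER chaperones Calr alone was lower at -0.41 ± 0.18 (6.22% of all tested genes), with a list median of -0.11. Sdf2l1 alone was higher at 1.20 ± 0.48 (4.68% of all tested genes). It ran from 0.437 to 1.63 CPM in control and from 1.36 to 2.89 CPM in miDrp1KO libraries. The value of Sdf2l1 rests on 6 counts in control C and 13 in control B, ran from 0.91 to 2.08 with 1 replicate left out, and the gene was not tested where at least 10 counts in every library were required. Of 16 mitochondrial chaperones 4 were lower, where 6.22% of all tested genes were, with a list median of -0.22. Lonp1, the matrix protease, was at -0.73 ± 0.18 (DESeq2 adjusted p of 0.0342, over the alternatives 0.0342 to 0.877). The others were Hspd1 (HSP60) at -0.51 ± 0.17, Trap1 at -0.52 ± 0.17 and Dnajc11 at -0.40 ± 0.18. Dnajc19 was higher at 0.51 ± 0.15, where 4.68% of all tested genes were. The medians of all 5 lists thus lay below that of all tested genes (0.02), as did the median of the 36 heat shock genes.

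**Figure D5:**
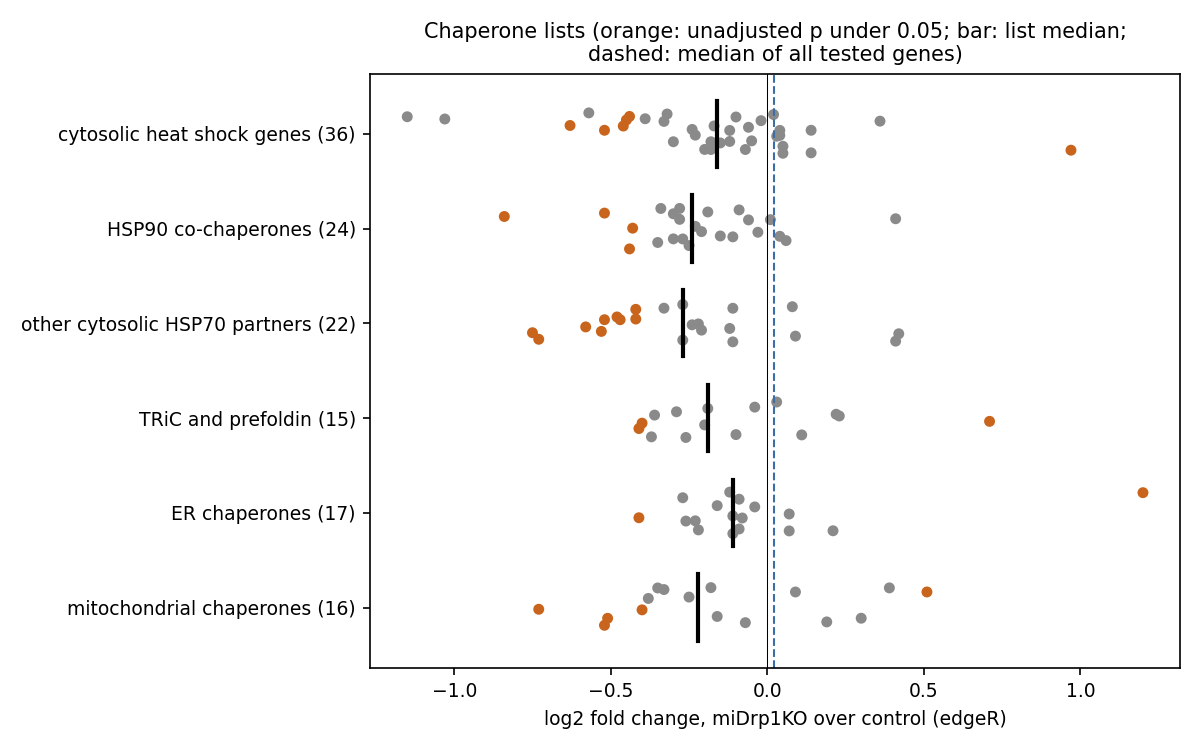
Log2 fold change (miDrp1KO over control, edgeR) of each gene in 6 chaperone lists, orange for an unadjusted p under 0.05, with a black bar at the list median and a dashed line at the median of all tested genes (0.02). Medians run from -0.27 for other cytosolic HSP70 partners to -0.11 for ER chaperones, and Dnajb1, Pfdn4, Sdf2l1 and Dnajc19 are the orange points on the right.

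No marker of another cell type passed an adjusted p of 0.05 in edgeR, the smallest being 0.379 in the macrophage list. That list summed to 147 to 271 CPM in control and 240 to 257 CPM in miDrp1KO libraries, with 5 of 10 genes higher at an unadjusted p under 0.05 (4.68% of all tested genes), and the adipose list to 1195 to 2393 and 688 to 1437 CPM, with 3 of 9 genes lower (6.22% of all tested genes). The blood, fibroblast, endothelial, smooth muscle and Schwann cell lists had 0 genes under that limit, and the denervation list had 1 lower and 1 higher. Hbb-bt of the blood list had no row in the counts used here, no gene measured in these lists was at 0 in any library, and their part in the values of Hsf1, Hsp90ab1 or Dnajb1 was not tested.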

How the data were processed

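RNA from quadriceps muscle was depleted of ribosomal RNA, made into stranded total RNA libraries, sequenced in pools, aligned to GRCm38 and counted with Rsubread, according to the methods. The authors deposited raw read counts per gene, 1 table per library, without normalization, and used DESeq2 1.30.0 themselves. Whether strand was used in counting, and how multi-mapping reads were treated, is not given in the sources used here.

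The 6 tables were joined by Entrez identifier, and heat shock genes were matched by symbol (36 of 36). In R 4.3.3, edgeR 4.0.16 was fitted to all libraries (TMM, filterByExpr by genotype, robust quasi-likelihood, Benjamini-Hochberg over 16483 genes, threshold 0.05), and the steps were tested on simulated data. CPM used TMM library sizes, and levels per kb the longest coding transcript. Alternatives were DESeq2 1.42.0, limma 3.58.1 (voom), RLE and upper quartile scaling, no filter, at least 10 counts in every library, leaving out ribosomal RNA genes and Lars2, a covariate for either the share of ribosomal RNA or the score of slow fibre markers, and leaving out each replicate. Libraries correlated at Spearman rho of 0.960 to 0.985, with no duplicate. Promoters and gene coordinates came from RefSeq on GRCm38. Gene strands, exon overlaps and transcript sequences came from GENCODE on GRCm38.

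The heat shock genes and all lists were chosen with earlier results of these data known. Full values were given to members with an unadjusted p under 0.05, to those whose groups did not overlap and to Hsf1, Hsp90aa1, Hspa8, Hspa1a, Hspa1b, Hspb1, Cryab, Dnajb1 and Bag3. From each other chaperone list the genes with an unadjusted p under 0.05 were named, mostly by fold change alone. Values of other genes are ranges or were added for this description.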

Additional observations from a re-analysis of the deposited data

How the results depend on the processing

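No heat shock gene passed an adjusted p of 0.05 in the edgeR fit or in any of the 15 alternatives, where DESeq2 gave an adjusted p for 24 of the 36 and none for Dnajb1 or Bag5, and Dnajb1, Hsf1, Hsp90ab1, Dnajb2, Dnajb5, Stip1, St13 and Bag5 kept their direction in all of them. Dnm1l passed in DESeq2, at -0.90, and ran from -1.05 to -0.79 with 1 replicate left out. The median log2 fold change of the 36 genes was -0.33 when adjusted for slow fibre score and ran from -0.31 to -0.02 with 1 replicate left out. In the latter fits the count of lower genes at an unadjusted edgeR p under 0.05 ran from 0 without control D (2.15% of all tested genes) to 7 without control C (5.45%). For the other chaperone lists, whose alternatives were chosen after seeing the data, 20 genes were lower in the main fit (6.22% of all tested genes). This count was 10 with upper quartile normalization (3.88%), 11 with at least 10 counts in every library (6.03%) and 12 without Lars2 and the ribosomal RNA genes (5.16%). With 1 replicate left out it ran from 6 without control D (2.15%) to 23 without miDrp1KO A (8.9%). The count of higher genes in these lists was 6 with upper quartile normalization (7.23%), against 3 in the main fit (4.68%). DESeq2 also called Nudc, Dnajc21 and Lonp1. Across all genes the calls at an adjusted p under 0.05 were 94 in DESeq2, 8 without a filter, 4 with the slow fibre covariate, 1 in limma voom and with the ribosomal RNA covariate, and 1 to 7 with 1 replicate left out, against 2. Signs turned for 19 of the 36 heat shock genes, in no case past an adjusted p of 0.05. With limma voom Hspb1 was at 0.035 and Hspb3 at -0.024. With upper quartile normalization Hspa1l was at 0.076, Hspa2 at 0.026, Hspa4l at 0.026 and Hspb1 at 0.048. Hspa1l was at 0.026 with at least 10 counts in every library and at 0.024 with ribosomal RNA genes left out. When adjusted for ribosomal RNA share Hspa1l was at 0.0066, Hspa4l at 0.068, Hspb1 at 0.11, Hspb2 at -0.055, Hspb3 at -0.10 and Hspb8 at -0.014. When adjusted for slow fibre score Hspa12a was at -0.18, Hspb3 at -0.029, Cryab at -0.40, Dnajb4 at -0.18 and Bag3 at -0.071. With 1 replicate left out the log2 fold change ran from -1.56 to 0.92 for Hspa1a, -1.72 to 0.66 for Hspa1b, -0.28 to 0.27 for Hspa1l, -0.35 to 0.13 for Hspa2, -0.68 to 0.20 for Hspa8, -0.32 to 0.25 for Hspa12a, -0.039 to 0.16 for Hspa13, -0.36 to 0.21 for Hspa4l, -0.55 to 0.079 for Hsph1, -0.42 to 0.37 for Hspb1, -0.11 to 0.31 for Hspb2, -0.19 to 0.16 for Hspb3, -0.76 to 0.20 for Hspb6, -0.16 to 1.69 for Hspb7, -0.15 to 0.22 for Hspb8, -0.31 to 0.35 for Cryab, -0.55 to 0.18 for Dnaja4, -0.17 to 0.27 for Dnajb4 and -0.21 to 0.38 for Bag3. Signs held but values moved with 1 replicate left out for Hsf2 (-0.24 to -0.01), Hspa4 (-0.52 to -0.20), Hspa14 (-0.22 to -0.02) and Dnaja1 (-0.27 to -0.06). The same was so for Dnaja2 (-0.26 to -0.12), Dnajb6 (-0.40 to -0.01), Bag1 (-0.14 to -0.00) and Bag2 (-0.26 to -0.01). The cause of these changes was not tested. No paired analysis was possible because no letter of a replicate occurs in both groups. Depth limits Dnajb1, with 43 to 244 counts, Hspa1a, with 36 counts in control C, and Sdf2l1, with 6 counts there.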
